A study of Mus musculus with 86 samples.

Results

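Ewsr1, Taf15, Matr3, Tia1, Tial1 and Atxn2 encode RNA-binding proteins that have been tied by human genetics or pathology to amyotrophic lateral sclerosis (ALS) or frontotemporal dementia (FTD), the same diseases in which TDP-43 aggregates. The 6 genes were taken by name from the 53664 genes that the transcripts of the CAD and N2A files sum to (52631 in the files of the Q331K experiment), and all 6 passed the filter on low counts in every experiment. RNA-seq of separated soma and neurites was available from 36 mouse libraries in 12 groups of 3. CAD cells are a mouse catecholaminergic neuronal line and N2A (Neuro-2a) cells a mouse neuroblastoma line. In both, CRISPR-made clones carried inactivated endogenous Tardbp alleles and a single HA-tagged TDP-43 transgene that doxycycline turns off. The wild-type groups were cells without doxycycline and the knockout groups were cells given 2 μg/mL for 48 h according to the labels (the study's methods give a different dose), so loss of TDP-43 and doxycycline itself cannot be told apart. In the third experiment, CAD cells with their own Tardbp alleles expressed a doxycycline-induced HA-tagged transgene, either WT TDP-43 or the ALS mutant Q331K, and both groups were induced. Cells were differentiated without serum on porous membranes, and neurites were collected from the side they grow through to.

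Ewsr1 and Taf15 encode FET family proteins, mostly nuclear factors in transcription and splicing with a prion-like low-complexity domain. Matr3 encodes matrin 3, a nuclear matrix protein that binds RNA and DNA and takes part in splicing. Tia1 and Tial1 encode the related proteins TIA-1 and TIAR, which bind U-rich RNA, regulate splicing in the nucleus and promote stress granule assembly in the cytoplasm. Atxn2 encodes ataxin-2, a cytoplasmic partner of poly(A)-binding protein whose expanded polyglutamine tract causes spinocerebellar ataxia or, at intermediate length, raises ALS risk. TDP-43 itself prefers GU-rich RNA, in introns as a splicing regulator and in 3′ UTRs.

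In GRCm38, Ewsr1 (ENSMUSG00000009079) lies at chr11:5069689-5099266 on the minus strand and Taf15 (ENSMUSG00000020680) at chr11:83473086-83506743 on the plus strand. Tia1 (ENSMUSG00000071337) lies at chr6:86404219-86433405 on the plus strand. Tial1 (ENSMUSG00000030846) lies at chr7:128439777-128461717 on the minus strand and Atxn2 (ENSMUSG00000042605) at chr5:121711337-121816493 on the plus strand. The files list 13 transcripts of Ewsr1, 5 of Taf15, 28 of Tia1, 14 of Tial1 and 20 of Atxn2. Of Matr3 (ENSMUSG00000037236) they list 1 transcript, Matr3-201, so each Matr3 value is of that transcript and not of the whole gene.

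The coding exons shown here are held by only some isoforms. The first is an 18-base exon of Ewsr1, coding and a multiple of 3 in length, at chr11:5091460-5091477 on the minus strand (GRCm38), which is held by 1 listed transcript, Ewsr1-205, and skipped by 3 (Ewsr1-202, Ewsr1-203 and Ewsr1-204). The second is a 54-base coding exon of Atxn2 at chr5:121806222-121806275 on the plus strand, held by Atxn2-201 and Atxn2-210 and skipped by Atxn2-209, Atxn2-214 and Atxn2-215. In the lines that follow, capitals mark exon bases and lower case marks the bases of the neighbouring exons, and of the Atxn2 exon the first 30 bases are shown.
Ewsr1 with the exon: ccactgTAGAAGGGACCAGTACAGgttata
Ewsr1 without the exon: ccactggttata
Atxn2 exon, start: CATGTCCCAAATTACCATACAACAAGGAGA

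The 3′ UTRs were searched for GTGTG and TGTGT on the transcript strand, with overlapping matches counted and 1 run able to hold both. The paper also counts GUAUG as a TDP-43 motif, which was not searched for here. In the longest annotated 3′ UTR, GTGTG stood 7 times in Tia1 (3515 bases), 6 times in Tial1 (2756 bases), 4 times in Matr3 (3405 bases) and once in Taf15 (286 bases). It was not found in Atxn2 (584 bases) or in the longest UTR of Ewsr1 (903 bases). The longest UTR of Tia1 is that of Tia1-205, a transcript annotated for nonsense-mediated decay, while Tia1-202 has a UTR of 3038 bases. Among 13617 genes tested in CAD cells that have a 3′ UTR of at least 50 bases, 76.4% held GTGTG at least once. Of genes with a UTR of like length (at least 0.8 of it, and no longer than the reciprocal of that), 98.5% held it for Tia1, 97.2% for Tial1, 98.6% for Matr3, 33.5% for Taf15, 57.1% for Atxn2 and 76.1% for Ewsr1. Both motifs together came to 5.81 per kilobase in Tial1, 4.41 in Matr3, 4.27 in Tia1, 3.497 in Taf15, 1.11 in Ewsr1 and 0 in Atxn2, against a median of 3.77 over those genes. For the transcript with the highest mean level instead, GTGTG was counted once in Ewsr1 (Ewsr1-202), 6 times in Tia1 and 0 times in Tial1, whose most abundant coding transcript, Tial1-201, has a 3′ UTR of 253 bases. The window of 30 bases with the most matches is shown for Tia1, Tial1, Taf15 and Ewsr1, with matches in capitals. That of Tial1 is from its longest UTR (Tial1-202), and no window of Matr3 is shown. Each window was picked for its matches and does not show the density over the UTR.
Tia1, chr6:86432814-86432843, plus strand: gcagtgattatTGTGTGTGagatttttccc
Tial1, chr7:128441148-128441177, minus strand: ctttgggaGTGTGTGggtgacagatgtgaa
Taf15, chr11:83506500-83506529, plus strand: ggaattgtcagaGTGTGcctgctgctttcc
Ewsr1 (Ewsr1-202), chr11:5069879-5069908, minus strand: agttaaatagtaGTGTGctgagtttttttt

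Libraries held 25009904 to 32895542 estimated counts for CAD, 22726534 to 31911030 for N2A and 9783050 to 15870647 for the Q331K experiment. The part of this lower depth in the results of the third experiment was not tested. Levels are given as CPM, the count of a gene over the TMM-scaled library total, and division between compartments is given as the localization ratio (LR), log2 of neurite over soma CPM. For the neuronal and non-neuronal markers and the nuclear-retained RNAs, CPM is over the library total without TMM scaling. Their CPM values are therefore not on the scale of the member values. In such bulk samples, fewer cells with a transcript and less of it per cell cannot be told apart. A gene was said to rise, fall or differ where edgeR's quasi-likelihood test gave an adjusted p below 0.01, with adjustment over all genes tested. Tardbp checked the labels: in soma it was at 515 to 569 CPM in wild-type and 90.4 to 98.3 CPM in knockout CAD cells, and at 546 to 601 and 160 to 179 CPM in N2A cells. In the Q331K experiment, Tardbp counts the endogenous gene and the coding part of the transgene together, and its log2 difference between Q331K and WT transgene soma was -0.02 ± 0.09 (SE). Of 8 neuronal markers, Tubb3, Map2, Gap43, Stmn2, Snap25 and Elavl4 were at 38.5 CPM or more in every library, Nefm was near 0 (at most 0.385 CPM) and Th was low (0.306 to 5.87 CPM). The 10 markers of glia, microglia, endothelium and fibroblasts summed to 11.4 to 37.9 CPM per library.

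Within a library, TPM, which is scaled by transcript length, allows genes to be ordered. In CAD wild-type soma, Ewsr1 was highest at 424 ± 77.2 TPM (SD, n = 3), followed by Atxn2 at 98.6 ± 20.1 and Tial1 at 87.6 ± 15.1, whose ranges overlapped. Tia1 (54.7 ± 7.51 TPM) and Taf15 (52.8 ± 3.63 TPM) came next and overlapped, and the listed Matr3 transcript was lowest at 5.82 ± 0.808 TPM. In N2A wild-type soma, the order was Ewsr1 (477 ± 43.0 TPM), Tial1 (136 ± 17.1), Tia1 (121 ± 2.19), Atxn2 (96.7 ± 2.54), Taf15 (82.2 ± 1.05) and Matr3 (6.52 ± 0.823), with only Tial1 and Tia1 overlapping among neighbours. In WT transgene soma it was Ewsr1 (413 ± 4.07 TPM), Tial1 (126 ± 2.82), Tia1 (82.1 ± 6.21), Atxn2 (76.0 ± 6.25), Taf15 (52.2 ± 4.24) and Matr3 (6.73 ± 1.08), with Tia1 and Atxn2 overlapping. Ewsr1 was the highest and Matr3 the lowest of the 6 in each of the 12 groups. In CAD wild-type neurites, Taf15 moved to the second place (25.4 ± 4.08 TPM, overlapping Tial1 at 23.1 ± 5.20) and Tia1 to the fifth (10.5 ± 2.29). TPM was not compared between compartments, since transcripts under 200 bases took 38.5% to 64.6% of TPM in CAD neurites and 11.4% to 39.6% in CAD soma (28.2% to 71.2% and 7.65% to 24.3% in N2A, at most 1.56% in the Q331K experiment) while holding at most 2.38% of counts.

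**Figure D1:**
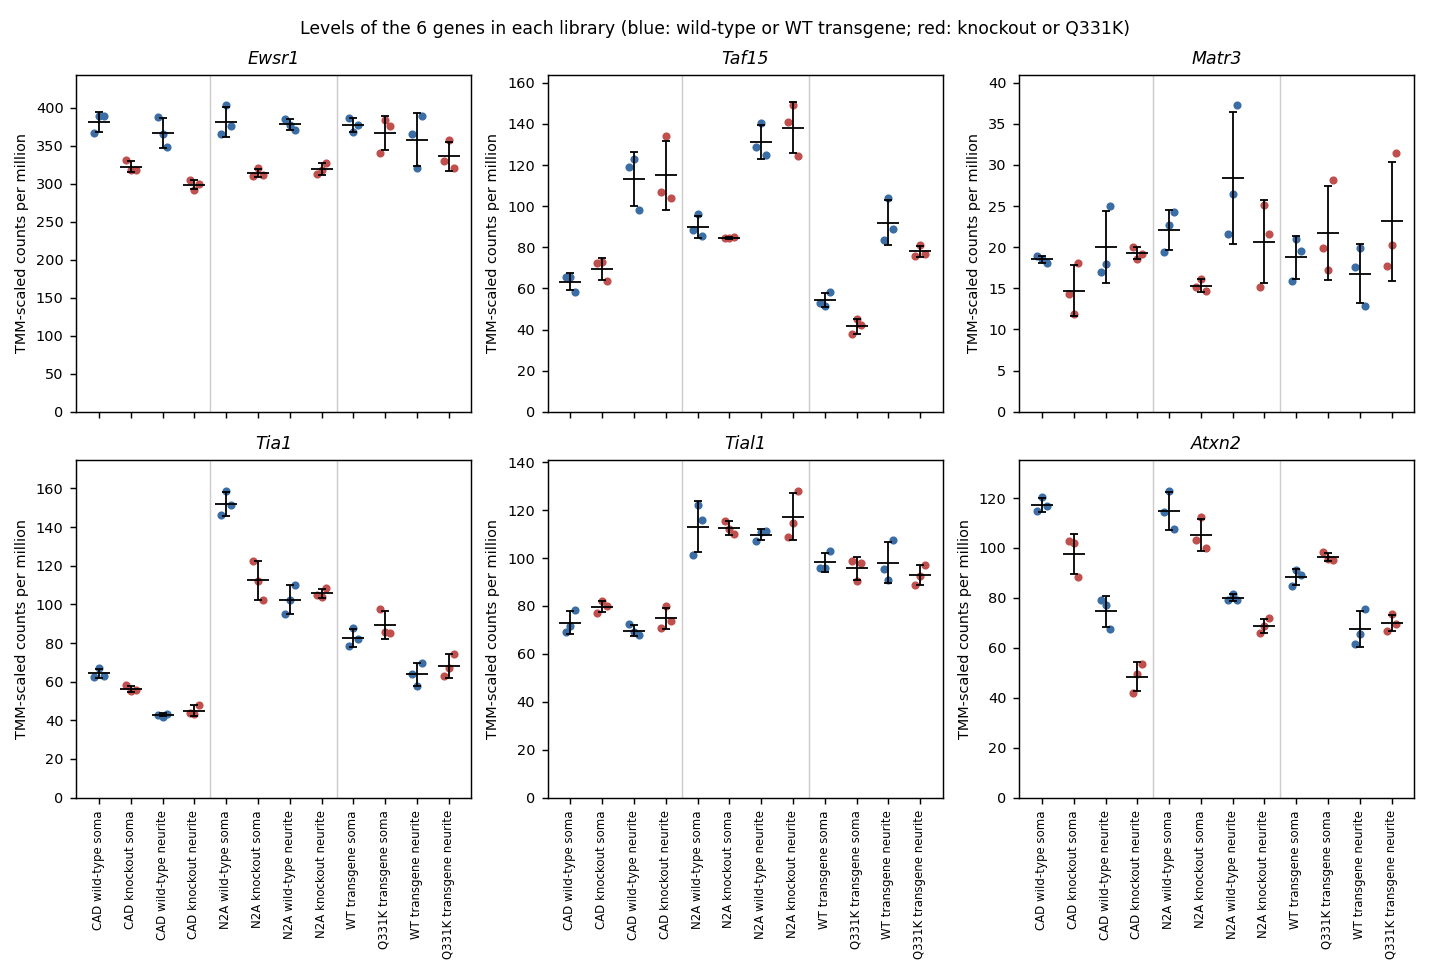
TMM-scaled CPM of each gene (vertical axis, from 0) in the 36 libraries by group (horizontal axis). Points are libraries, bars are the mean and SD of 3, blue is wild-type or WT transgene and red is knockout or Q331K. Ewsr1 sits between 292 and 330.9 CPM in all knockout libraries and between 348 and 403 CPM in all wild-type libraries of CAD and N2A cells.

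The first question was how these RNAs were divided between soma and neurites with TDP-43 present. Taf15 was neurite-enriched, Tia1 and Atxn2 were depleted from neurites, and Ewsr1 and Tial1 were near an LR of 0, in all 3 experiments. These 3 of 6 genes differed between compartments in CAD wild-type cells, where 41.4% of all genes did. The same 3 differed in N2A wild-type cells (59.2% of all genes) and in WT transgene cells (27.5%).

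Taf15 in CAD wild-type cells was at 65.8, 65.4 and 58.4 CPM in soma and 119, 122.7 and 98.1 CPM in neurites, without overlap. Its LR was 0.84 ± 0.10 (SE, adjusted p = 4.39e-06) in CAD, 0.54 ± 0.08 (adjusted p = 2.08e-05) in N2A and 0.76 ± 0.09 (adjusted p = 4.40e-06) in WT transgene cells. In N2A cells, upper-quartile scaling gave Taf15 an LR of 0.25 (adjusted p = 0.0139) with the median of all genes at -0.33, and length-scaled counts gave 0.30 (adjusted p = 0.0200). Tia1 was at 146, 159 and 151 CPM in N2A wild-type soma and 94.9, 102 and 110 CPM in neurites. Its LR was -0.59 ± 0.06 (adjusted p = 5.42e-07) in CAD, -0.57 ± 0.08 (adjusted p = 1.23e-05) in N2A and -0.37 ± 0.09 (adjusted p = 0.00292) in WT transgene cells. All soma libraries of these wild-type groups exceeded all neurite libraries of the same experiment for Tia1. Atxn2 was at 115, 120 and 117 CPM in CAD wild-type soma and 79.1, 77.1 and 67.6 CPM in neurites. Its LR was -0.65 ± 0.09 (adjusted p = 9.52e-06) in CAD, -0.52 ± 0.07 (adjusted p = 1.28e-05) in N2A and -0.39 ± 0.08 (adjusted p = 0.000700) in WT transgene cells. In WT transgene cells the calls of Tia1 and Atxn2 were lost without replicate 1 (adjusted p = 0.0196 and 0.0251) and without replicate 2 (0.105 and 0.0302), and that of Tia1 also with length-scaled counts (-0.39, adjusted p = 0.0183).

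Ewsr1 had an LR of -0.06 ± 0.06 in CAD, -0.01 ± 0.07 in N2A and -0.07 ± 0.08 in WT transgene cells, and Tial1 of -0.07 ± 0.06, -0.04 ± 0.08 and 0.00 ± 0.08. The Matr3 transcript had 0.12 ± 0.14, 0.36 ± 0.18 and -0.16 ± 0.22. None of these passed the test. With length-scaled counts Ewsr1 passed in CAD (-0.33, adjusted p = 0.000937) and N2A (-0.47, adjusted p = 0.000125), so its value near 0 depends on how transcript length is treated. In N2A, upper-quartile scaling gave Ewsr1 -0.31 and Tial1 -0.34, both passing, again with the median of all genes at -0.33, and requiring 10 counts in every library gave -0.25 and -0.28, both passing. The Matr3 transcript passed in N2A without a filter (0.43, adjusted p = 0.000264). The 5 nuclear-retained RNAs used as a guide to nuclear RNA (Malat1, Neat1, Meg3, Snhg11 and Kcnq1ot1) summed to 584 to 2448 CPM in CAD wild-type soma and 261 to 597 CPM in neurites, and to 1115 to 3758 and 320 to 543 CPM in N2A. Their part in these LRs was not tested.

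Beneath the gene sums, transcripts of 1 gene were split unequally between compartments. Protein-coding transcripts took a larger share of Ewsr1, Taf15, Tia1, Tial1 and Atxn2 in neurites than in soma in both knockout experiments' wild-type cells, without overlap between the groups of 3. The same held for 39.2% of 10020 genes tested in CAD and 54.04% of 9958 in N2A that list coding and other transcripts (the reverse for 2.00% in each), so it was common and is not read as particular to these 5. In N2A cells, the coding share of Tial1 TPM was 32.8% ± 4.02 (SD, n = 3) in soma and 61.3% ± 5.61 in neurites, and that of Tia1 was 26.2% ± 2.74 and 53.8% ± 4.46. The coding share of Ewsr1 was 49.1% ± 1.36 in soma and 70.9% ± 1.18 in neurites, that of Atxn2 was 59.8% ± 5.30 and 80.2% ± 0.870, and that of Taf15 was 68.0% ± 3.89 and 84.8% ± 1.51. The exact permutation test of 3 against 3 cannot give a p below 0.1. In WT transgene cells the differences were smaller, at 2.05 percentage points for Ewsr1 and 7.75 for Tial1, and only Taf15 (4.69 points) did not overlap. There, 14.2% of 9383 genes had a larger coding share in neurites without overlap and 2.93% a smaller one. Outside the coding share stand models with a retained intron, 14 of 28 for Tia1, 8 of 20 for Atxn2 and 4 of 14 for Tial1. Models annotated for nonsense-mediated decay and non-coding models annotated as processed transcripts stand outside it too. Of the 13 Ewsr1 transcripts, 8 are annotated as processed transcripts.

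Tested transcript by transcript, 14 of 64 member transcripts differed between CAD wild-type neurites and soma (15% of all transcripts tested) and 23 of 65 in N2A (29.5%), with 0 of 44 in WT transgene cells (5.39%). In usage within a gene, 0 of 63 member transcripts passed between these compartments in CAD (0.923% of all transcripts), 11 of 64 in N2A (5.92%) and 0 of 43 in WT transgene cells (0.26%). Of 23 retained-intron transcripts of these genes in N2A cells, 8 were lower in neurites and 0 higher, where 25.0% of all 11310 such transcripts were lower and 1.80% higher, with a median log2 difference of -1.90 against -1.52. Of 23 coding transcripts, 6 were higher and 4 lower, and over all coding transcripts 28.6% were higher and 7.17% lower. Tial1-201, the most abundant coding isoform of TIAR, was higher in neurites by 2.05 ± 0.25 on the log2 scale in N2A (adjusted p = 7.52e-05) and by 1.08 ± 0.15 in CAD (adjusted p = 0.000345). Ewsr1-203, a coding isoform without the 18-base exon, was higher in neurites by 1.76 ± 0.22 in N2A and 0.69 ± 0.14 in CAD, while the gene as a whole stayed near an LR of 0. Taf15-201 was higher by 1.22 ± 0.15 in CAD and 1.11 ± 0.15 in N2A. Tia1-213, by contrast, was lower in neurites by -1.91 ± 0.23 in N2A and -1.43 ± 0.23 in CAD. These shares rest on how Salmon divided reads among overlapping isoforms, and no resampled estimates of that division were used.

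**Figure D2:**
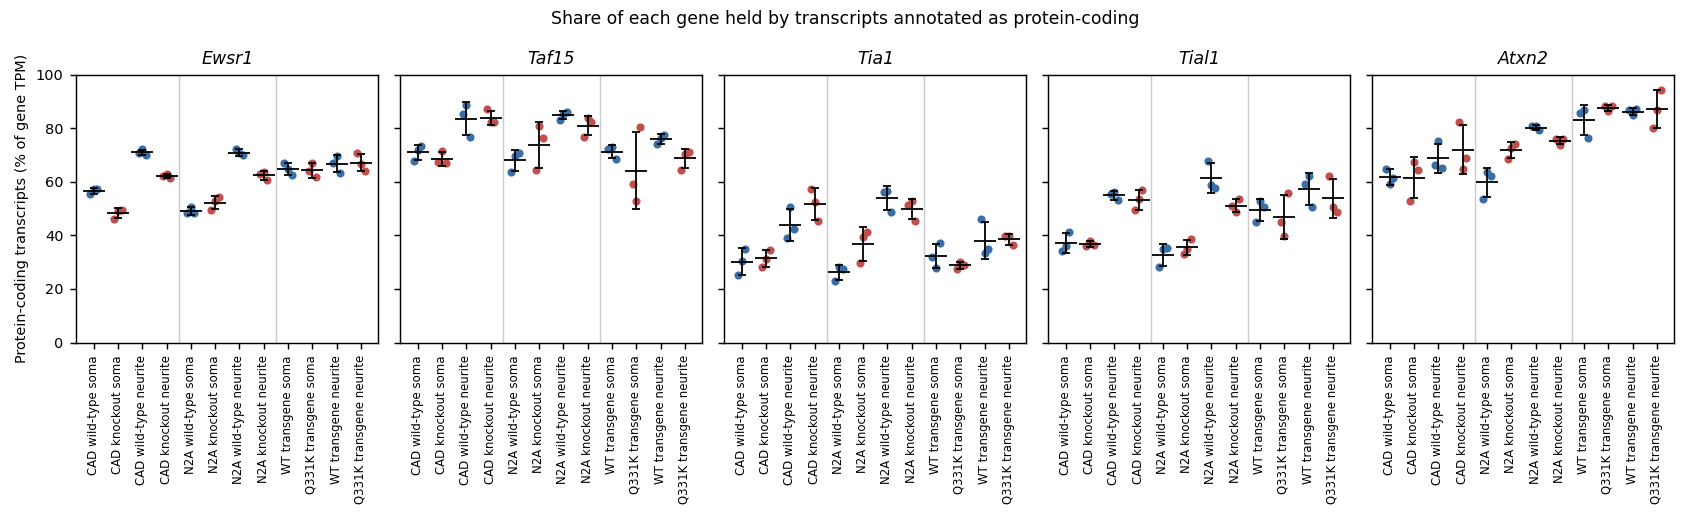
Share of the summed TPM of each gene that falls on transcripts annotated as protein-coding (vertical axis, 0 to 100%) in each library by group, with the mean and SD of 3 libraries. Matr3 is left out because 1 coding transcript is listed. In CAD and N2A cells the wild-type neurite libraries lie above the wild-type soma libraries for all 5 genes.

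The second question was whether the levels changed on loss of TDP-43. Ewsr1 fell modestly in both cell lines, Atxn2 fell in CAD neurites and Tia1 fell in N2A soma, while Taf15 and Tial1 passed in no comparison. In CAD cells, 1 of 6 genes changed in soma (22.8% of all genes did) and 2 of 6 in neurites (25.3%). In N2A cells, 2 of 6 changed in soma (16.1%) and 0 of 6 in neurites (11.6%), where edgeR gave 3 an unadjusted p below 0.05 and DESeq2 called 1. The members' share was below the background in CAD soma and N2A neurites and above it in CAD neurites and N2A soma, and with 6 genes these counts are not read as particular to them. The median log2 difference of the 6 was -0.22 in CAD soma (0.00 over all genes), -0.02 in CAD neurites (0.00), -0.20 in N2A soma (-0.02) and -0.09 in N2A neurites (-0.01). The summed non-neuronal markers were at 21.5 to 22.9 CPM in wild-type and 27.2 to 29.1 CPM in knockout CAD soma (2 of 7 tested rose, with Gfap, Aqp4, Aif1 and Cx3cr1 at most 0.680 CPM), and at 33.5 to 37.9 and 22.5 to 32.6 CPM in N2A soma (1 of 7 fell). In neurites they were at 15.7 to 17.6 CPM in wild-type and 20.1 to 22.4 CPM in knockout CAD cells, and at 16.6 to 20.2 and 14.8 to 18.3 CPM in N2A. The 8 neuronal markers summed to 965 to 1097 CPM in wild-type and 1094 to 1198 CPM in knockout N2A soma, and to 1555 to 1657 and 1389 to 1502 CPM in N2A neurites. In CAD cells they were at 1947 to 2021 and 1854 to 2042 CPM in soma and at 1706 to 1926 and 1897 to 2128 CPM in neurites. The part of either marker set in the member differences was not tested.

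Ewsr1 was at 366, 389 and 389 CPM in CAD wild-type soma and 330.9, 319 and 318 CPM in knockout soma. In CAD neurites it was at 388, 365 and 348 CPM in wild-type and 305, 292 and 300.1 CPM in knockout cells. Each knockout library was below each wild-type library in both compartments. The log2 difference was -0.24 ± 0.06 (SE, adjusted p = 0.00683) in soma and -0.30 ± 0.06 (adjusted p = 0.00145) in neurites, or 15.4% and 18.5% below wild-type. In N2A soma, Ewsr1 was at 366, 403 and 376 CPM in wild-type and 311, 320.5 and 311 CPM in knockout cells, a log2 difference of -0.28 ± 0.07 (adjusted p = 0.00691). In N2A neurites the groups did not overlap either, with -0.24 ± 0.07 and an adjusted p of 0.0203. With length-scaled counts the CAD soma difference of Ewsr1 was -0.07 (adjusted p = 0.497) the CAD neurite difference -0.15 (adjusted p = 0.121) and the N2A soma difference -0.27 (adjusted p = 0.0239). Without a filter on low counts the calls were lost as well, at -0.27 (adjusted p = 0.0325), -0.30 (0.0108) and -0.25 (0.103) in the same order, so each of these falls depends on the processing. Leaving out any 1 replicate number ended the soma call of Ewsr1 in both lines, with adjusted p from 0.0104 to 0.167 in CAD and from 0.0185 to 0.494 in N2A. The neurite call in CAD was lost without replicate 1 (adjusted p = 0.0155) and without replicate 2 (0.0676).

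Atxn2 was at 79.1, 77.1 and 67.6 CPM in CAD wild-type neurites and 42.1, 49.5 and 53.7 CPM in knockout neurites. The 2 groups were well apart, and the log2 difference was -0.62 ± 0.09 (adjusted p = 3.80e-05), 35.1% below wild-type. With length-scaled counts it was -0.54 (adjusted p = 0.0112). In CAD soma the libraries also did not overlap (115 to 120 against 88.5 to 103 CPM), with -0.26 ± 0.08 and an adjusted p of 0.0244 that missed the threshold (-0.29 and 0.00703 without a filter). In N2A the log2 difference of Atxn2 was -0.22 ± 0.07 in neurites (adjusted p = 0.0470) and -0.13 ± 0.07 in soma (adjusted p = 0.194). In a fit of both lines together, the neurite difference of Atxn2 was lower in CAD than in N2A by -0.46 ± 0.11 on the log2 scale (adjusted p = 0.00626), the only member difference between the lines that passed, where 9.18% of all genes passed. It missed the threshold with upper-quartile scaling (adjusted p = 0.0187), without a filter (0.0334) and without replicate 1 (-0.37, 0.0666) or 2 (-0.46, 0.146). Tardbp also differed between the lines in this comparison, by -0.53 ± 0.11, and the part of its different fall in the Atxn2 difference was not tested.

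Tia1 was at 146, 159 and 151 CPM in N2A wild-type soma and 122.5, 112 and 102 CPM in knockout soma. No knockout library reached the wild-type range, and the log2 difference was -0.44 ± 0.08 (adjusted p = 0.000944), 26.1% below wild-type. The call was lost with length-scaled counts (-0.35, adjusted p = 0.0151), without replicate 2 (-0.32, 0.205) and without replicate 3 (-0.32, 0.0372). In CAD soma the log2 difference was -0.19 ± 0.06 (adjusted p = 0.0180) with no overlap between groups. Neurite levels of Tia1 were 42.0 to 43.5 CPM in wild-type and 43.3 to 48.1 CPM in knockout CAD cells, and 94.9 to 110 and 104 to 108 CPM in N2A.

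Tial1, the close relative of Tia1, had log2 differences of 0.13 ± 0.06 in CAD soma, 0.10 ± 0.06 in CAD neurites, -0.01 ± 0.08 in N2A soma and 0.09 ± 0.08 in N2A neurites. Taf15 had 0.14 ± 0.10, 0.02 ± 0.10, -0.09 ± 0.08 and 0.07 ± 0.08 in the same order. Matr3 lies at chr18:35562138-35593835 on the plus strand with 18 annotated transcripts, of which 1 was counted. That Matr3 transcript had -0.33 ± 0.14, -0.06 ± 0.14, -0.53 ± 0.18 and -0.46 ± 0.18, with adjusted p from 0.0429 to 0.796. In N2A soma it was at 19.5, 22.7 and 24.2 CPM in wild-type and 15.2, 16.2 and 14.6 CPM in knockout cells, without overlap. Without a filter on low counts the Matr3 transcript passed in CAD soma (adjusted p = 0.00654), N2A soma (8.29e-05) and N2A neurites (0.000668), and without replicate 3 it passed in CAD soma (-0.52, adjusted p = 0.00316).

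**Figure D3:**
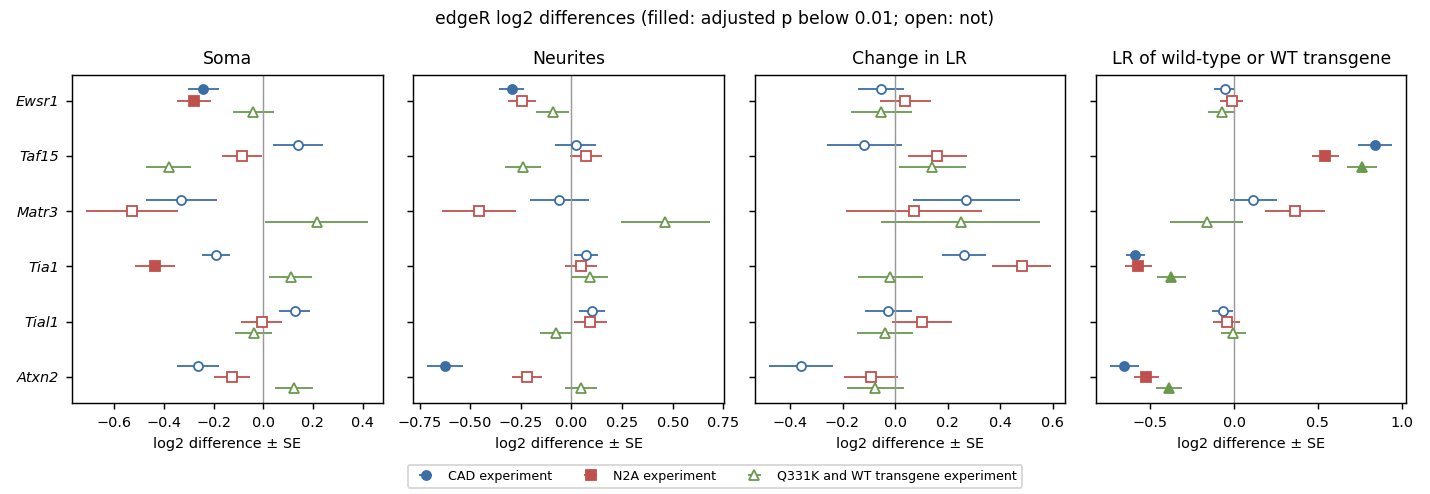
Log2 differences from edgeR with SE (horizontal axis) for each gene (vertical axis), in soma, in neurites, as the change in LR, and between neurites and soma of wild-type or WT transgene cells. Differences in soma and neurites are knockout minus wild-type or Q331K minus WT transgene, and filled symbols have an adjusted p below 0.01. The change in LR has no filled symbol, and Taf15, Tia1 and Atxn2 are filled in all 3 experiments for the LR itself.

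The third question was whether loss of TDP-43 changed the division between soma and neurites. None of the 6 genes passed in either line, where 0.432% of all genes passed in CAD and 0.1% in N2A. In CAD cells edgeR gave 2 of the 6 an unadjusted p below 0.05 and DESeq2 called 0, and in N2A cells edgeR gave 1 and DESeq2 called 1. Tia1 came nearest in both. Its LR in same-numbered libraries of N2A cells was -0.62, -0.63 and -0.46 in wild-type and -0.23, -0.11 and 0.08 in knockout cells, without overlap. The change was 0.48 ± 0.11 (adjusted p = 0.0331 with edgeR and 0.00253 with DESeq2) in N2A and 0.26 ± 0.08 (adjusted p = 0.220) in CAD. Between lines, the changes of Tia1 differed by -0.20 ± 0.14 (adjusted p = 0.459). Atxn2 went from -0.54, -0.64 and -0.79 in CAD wild-type cells to -1.29, -1.04 and -0.72 in knockout cells, which overlap, a change of -0.36 ± 0.12 (adjusted p = 0.259). For Ewsr1 the change was -0.05 ± 0.09 in CAD and 0.04 ± 0.10 in N2A, for Tial1 -0.03 ± 0.09 and 0.10 ± 0.11, for Taf15 -0.12 ± 0.14 and 0.16 ± 0.11, and for the Matr3 transcript 0.27 ± 0.20 and 0.07 ± 0.26. Nuclear-retained RNAs summed to 504.03 to 2571 CPM in N2A knockout soma and 394 to 697 CPM in knockout neurites, against 1115 to 3758 and 320 to 543 CPM in wild-type cells, and their part in the N2A values was not tested.

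Ewsr1-205, the isoform with the 18-base exon shown above, fell in CAD soma and in CAD neurites. It was at 58.6, 64.9 and 66.7 CPM in CAD wild-type soma and 21.7, 21.8 and 21.6 CPM in knockout soma. In neurites it was at 75.7, 73.4 and 72.3 CPM in wild-type and 25.9, 33.7 and 24.4 CPM in knockout cells. The log2 differences were -1.55 ± 0.11 (adjusted p = 1.56e-05) and -1.40 ± 0.11 (adjusted p = 2.34e-05), and both kept their call without each replicate number. Relative to the other Ewsr1 transcripts, its usage fell by 1.32 on the log2 scale in soma (adjusted p = 1.81e-07 in edgeR's diffSpliceDGE) and by 1.11 in neurites (adjusted p = 2.77e-05, 0.0119 without replicate 3).

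Inclusion of the exon, taken as the share of TPM of Ewsr1-205 among the transcripts that span it, was 19.1%, 18.5% and 19.7% in CAD wild-type soma and 8.31%, 7.81% and 7.75% in knockout soma. In CAD neurites it was 20.4%, 19.6% and 20.2% against 8.68%, 11.6% and 8.23%. In N2A neurites it was 23.5%, 20.2% and 20.01% in wild-type and 16.2%, 15.3% and 13.8% in knockout cells, again without overlap (p = 0.1 in an exact permutation test, the smallest possible). In N2A soma, inclusion was 16.98% ± 1.57 (SD, n = 3) and 15.6% ± 1.11, which overlap (exact permutation p = 0.4). Ewsr1-205 fell in N2A neurites by 0.81 ± 0.09 on the log2 scale (adjusted p = 0.000576, between 0.0195 and 0.0904 without 1 replicate number), while its difference in N2A soma was -0.26 ± 0.09 (adjusted p = 0.0938). Its usage did not pass in N2A (adjusted p = 0.467 in neurites and 1 in soma). The difference in response between the lines was not tested for transcripts. Ewsr1-205 alone holds the exon, so inclusion restates the share of that isoform and is not separate support for its fall.

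The coding share of Ewsr1 as a whole went from 56.6% ± 1.04 to 48.3% ± 1.84 in CAD soma and from 70.9% ± 1.06 to 62.2% ± 0.855 in CAD neurites on knockout, without overlap. In N2A neurites it went from 70.9% to 62.4% without overlap, and in N2A soma from 49.1% to 52.3% with overlap. In N2A neurites Tial1 (61.3% to 51.0%) and Atxn2 (80.2% to 75.3%) were also lower without overlap. In N2A soma Tia1 (26.2% to 36.8%) and Atxn2 (59.8% to 71.8%) were higher without overlap. The share of all genes that separate by genotype was not counted, so these separations are not read as particular to the members. Ewsr1-209, a non-coding transcript, rose in CAD neurites by 0.39 ± 0.07 (adjusted p = 0.00499).

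Atxn2-201 is a coding isoform that holds the 54-base exon and also a 169-base exon given below. It was at 37.6, 44.7 and 41.3 CPM in CAD wild-type soma and 23.7, 26.6 and 23.5 CPM in knockout soma. In CAD neurites it was at 30.1, 37.0 and 33.9 CPM against 15.5, 15.7 and 15.03 CPM, and in N2A neurites at 24.3, 33.5 and 24.1 CPM against 9.005, 13.6 and 5.87 CPM. All 3 sets were without overlap. It fell by 0.74 ± 0.09 in CAD soma (adjusted p = 0.000627), by 1.13 ± 0.10 in CAD neurites (adjusted p = 4.13e-05) and by 1.52 ± 0.27 in N2A neurites (adjusted p = 0.00931) on the log2 scale. Without 1 replicate number the CAD soma and N2A neurite calls were lost (adjusted p from 0.0121 to 0.0659 and from 0.0579 to 0.137), and the CAD neurite call was lost without replicate 3 (0.0137). Its usage relative to the other Atxn2 transcripts did not pass (adjusted p = 0.544 in CAD neurites and 0.0206 in N2A neurites). Inclusion of the 54-base exon in N2A neurites was 37.4%, 36.4% and 33.1% in wild-type and 26.3%, 26.9% and 21.8% in knockout cells. In CAD soma it was 41.3% ± 1.65 and 36.5% ± 1.30, also without overlap, and in CAD neurites (45.7% ± 3.86 and 40.4% ± 2.73) and N2A soma (27.3% ± 2.21 and 25.6% ± 4.10) the groups overlapped.

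In all, 2 of 64 member transcripts changed in level in CAD soma (4.15% of all transcripts) and 3 of 64 in CAD neurites (5.48%), and 0 of 65 changed in N2A soma (3.06%) and 2 of 65 in N2A neurites (1.72%). Each of these 7 calls has been named above. In usage, 1 of 63 passed in CAD soma (0.569% of all transcripts), 2 of 63 in CAD neurites (1.1%) and 2 of 64 in N2A neurites (0.43%). No member transcript passed in N2A soma usage (0.36%) or in LR change of level in CAD (0.0795%) or N2A (0.0283%). The usage calls not yet named were of rare models. Tial1-209 had at most 36.1 estimated counts in CAD wild-type neurites and at most 257 in N2A, and was at 0 in every knockout neurite library, with wild-type libraries also reaching 0. Tia1-206 was at 0 in the N2A wild-type neurite libraries and at 27.7 to 55.7 counts in knockout neurites, with 0 to 80.4 counts in wild-type soma. No fold is given for either. With the replicate block the CAD usage call of Tial1-209 was lost (adjusted p = 0.0427), and without replicate 3 too (0.0193). Its N2A call was lost without replicate 2 (0.211), and the call of Tia1-206 without replicate 2 (0.0182) and without replicate 3 (0.0327). A 169-base coding exon of Atxn2, whose length is no multiple of 3, is held by Atxn2-201 and Atxn2-214. It was included at 60.9% ± 3.67 in wild-type and 50.9% ± 0.705 in knockout CAD soma without overlap, and its groups overlapped elsewhere. Its inclusion went from 58.4% ± 2.80 to 47.5% ± 7.95 in CAD neurites on knockout. In N2A it went from 53.2% ± 7.81 to 41.0% ± 5.75 in neurites and from 54.3% ± 5.33 to 47.1% ± 3.68 in soma. Which exon goes with the fall of Atxn2-201 was not tested. A 33-base exon of Tia1 at chr6:86419101-86419133 was included at 48.2% ± 1.67 in wild-type and 48.3% ± 3.21 in knockout CAD soma, and its groups overlapped in every comparison.

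**Figure D4:**
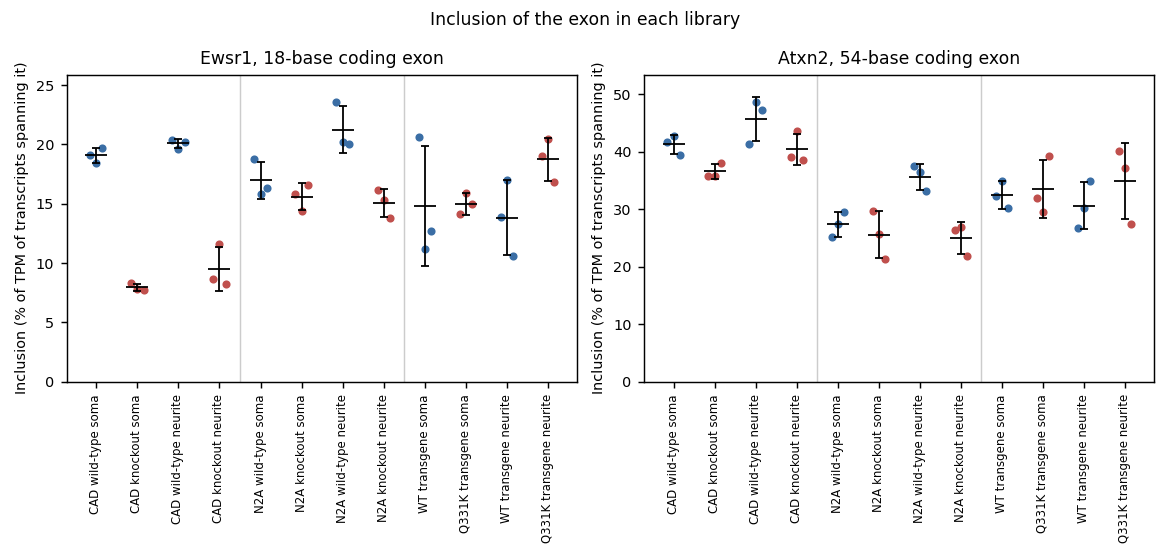
Inclusion of the 18-base exon of Ewsr1 and the 54-base exon of Atxn2 (vertical axis, percent of the TPM of transcripts that hold or skip the exon, from 0) in each library by group, with the mean and SD of 3. Ewsr1 inclusion is 7.75% to 11.6% in CAD knockout libraries and 18.5% to 20.4% in CAD wild-type libraries.

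The last comparison set the ALS mutant against the WT transgene. None of the 6 genes passed in soma, in neurites or in LR change, where 0 of 13940 genes passed in each (0% of all genes). At an unadjusted p below 0.05, edgeR gave 995 genes in soma, 1372 in neurites and 605 in LR change, and DESeq2 called 0, 10 and 0 genes, none of them a member. Taf15 was the member with the smallest p. It was at 52.9, 51.6 and 58.2 CPM in WT transgene soma and 37.6, 45.0 and 42.0 CPM in Q331K transgene soma. In neurites it was at 83.3, 104 and 88.7 against 75.9, 81.2 and 76.9 CPM. The groups did not overlap in either compartment, and the log2 differences of -0.38 ± 0.09 in soma (adjusted p = 0.314) and -0.24 ± 0.09 in neurites (adjusted p = 0.390) missed the threshold. Ewsr1 differed by -0.04 ± 0.08 and -0.09 ± 0.08, Tia1 by 0.11 ± 0.09 and 0.09 ± 0.09, Tial1 by -0.04 ± 0.07 and -0.08 ± 0.08, and Atxn2 by 0.12 ± 0.08 and 0.05 ± 0.08. The soma libraries of Atxn2 did not overlap (84.9 to 91.4 CPM in WT transgene and 95.3 to 98.4 CPM in Q331K transgene cells, adjusted p = 0.771). The Matr3 transcript differed by 0.21 ± 0.21 and 0.46 ± 0.22. Inclusion of the 18-base exon of Ewsr1 was 11.2% to 20.6% in WT transgene and 14.1% to 15.9% in Q331K transgene soma, and 10.6% to 16.99% and 16.8% to 20.4% in neurites, with overlap in both. No member transcript passed in level or usage (0.00288% and 0.023% of all transcripts passed for level in soma and neurites, 0.0144% for LR change, and 0.0616% and 0.171% for usage in soma and neurites).

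Genes that work with these proteins gave a setting for the values above. Of 15 stress granule partners of TIA-1 and ataxin-2, 1 rose and 0 fell in CAD soma (11.2% of all genes rose and 11.6% fell), and 7 rose and 0 fell in N2A soma (10.9% and 5.15%), among them G3bp1 (0.48 ± 0.06 and 0.47 ± 0.07), the core scaffold of stress granules, and Pabpc1 (0.54 ± 0.11 in N2A), the poly(A)-binding partner of ataxin-2. With upper-quartile scaling, which moved the median of all genes in N2A soma to -0.12, 5 rose there, and in CAD soma it, DESeq2 and length-scaled counts each gave 2. The median of the 15 in N2A soma was 0.29 (-0.02 over all genes). In CAD neurites 2 rose (G3bp1 and Lsm14a, 0.29 ± 0.06) and 0 fell, against 11.8% and 13.5% of all genes, and in N2A neurites 0 rose and 1 fell (Lsm12, -0.35 ± 0.08), against 6.48% and 5.10%. In wild-type LR, 4 of the 15 were higher in neurites and 4 lower in CAD cells (23.7% and 17.7% of all genes), 11 and 1 in N2A (32.5% and 26.6%), and 3 and 2 in WT transgene cells (14.9% and 12.6%). Pabpc1 (0.54 ± 0.10 in CAD and 0.70 ± 0.09 in WT transgene cells) was among the higher ones, and Atxn2l, the paralog of Atxn2 (-0.69 ± 0.09 and -0.54 ± 0.08), among the lower ones. Of 14 nuclear RNA-binding partners, Ilf2 fell in CAD soma (-0.57 ± 0.06) and neurites (-0.58 ± 0.06), Snrnp70 fell in CAD (-0.23 ± 0.06) and N2A (-0.51 ± 0.08) soma, and Safb2 rose in CAD soma (0.45 ± 0.09) and N2A neurites (0.34 ± 0.08). Ddx5 and Ptbp1 rose in CAD neurites (0.34 ± 0.07 and 0.28 ± 0.07), and Nono in N2A soma (0.39 ± 0.10). Of the 5 genes for import and arginine methylation of FET proteins, 4 were tested, and 1 changed in these comparisons, Prmt1 in N2A soma (0.35 ± 0.09). Of 7 tested genes among 8 for other RNA-binding proteins linked to ALS or FTD, Hnrnpa2b1 rose in CAD soma (0.29 ± 0.07) and neurites (0.46 ± 0.07), Hnrnpa3 fell in CAD soma (-0.32 ± 0.08), Gle1 rose in N2A soma (0.35 ± 0.08) and Rbm45 fell in N2A neurites (-0.32 ± 0.08). The naming rule takes 23 calls between genotypes in soma or neurites from these 4 lists. Of these 23, 19 were lost when some replicate number was left out, and the 4 that stayed were those of G3bp1 and Ilf2 in CAD soma and neurites. The wild-type LR calls are not among them. The LR call of Pabpc1 in CAD was lost without replicate 2 (adjusted p = 0.0104 with edgeR). That of Atxn2l in WT transgene cells was lost without replicate 1 (0.0112). Length-scaled counts ended 8, those of Snrnp70, Hnrnpa2b1 and Hnrnpa3 in CAD soma, Nono and Gle1 in N2A soma and Safb2, Rbm45 and Lsm12 in N2A neurites. Without a filter on low counts 5 were lost (Ddx5 and Ptbp1 in CAD neurites, Snrnp70 and Hnrnpa2b1 in CAD soma and Rbm45), and with upper-quartile scaling 4 (Prmt1, Nono and Gle1 in N2A soma and Safb2 in N2A neurites). No gene of these 4 lists passed in LR change in CAD or N2A cells or in any Q331K comparison of genotypes, while for N2A LR change upper-quartile scaling gave 1 nuclear partner and DESeq2 called 6 stress granule and 5 nuclear partners.

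Across the 12 group means of log2(TPM + 1), the 3 genes most like Ewsr1 among 9823 with a mean of at least 5 TPM were Rubcn, Srrm2 and Sfswap (Pearson r = 0.998, 0.997 and 0.997). For Tia1 they were Tex261, Brd9 and Osbpl6 (0.995, 0.995 and 0.993), for Tial1 Ppif, Srrm1 and Proser1 (0.996, 0.996 and 0.995), and for Atxn2 Ercc2, Eml3 and Camsap1 (0.996, 0.995 and 0.994). Taf15 was less closely matched, with Dync1h1, Atp8a1 and Becn1 at 0.963, 0.959 and 0.957. Matr3 was below the minimum. The points share libraries and the fall of TPM in neurites noted above, so high values are common, and over the 36 libraries 1 of 3 genes recurred for Taf15, Tial1 and Atxn2 and 0 of 3 for Ewsr1 and Tia1.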

How the data were processed

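RNA-seq of soma and neurites in 36 mouse libraries was used (12 groups of 3), and the other files of the series were not used here. The authors made KAPA mRNA HyperPrep libraries, trimmed reads with cutadapt and ran Salmon on mouse transcripts (the submitters' processing notes name mm10, with versions not given in the sources used here). They deposited an expected count and a TPM per transcript, with effective lengths. Expected counts were summed to genes with GENCODE M21 (GRCm38) and rounded. The paper names another Gencode release. At most 0.129% of a library's counts had no gene.

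Each experiment's 12 libraries were fitted with edgeR 4.0.16 in R 4.3.3 (TMM, filterByExpr, 1 mean per group, glmQLFTest, Benjamini-Hochberg, FDR 0.01), at gene and transcript level, with diffSpliceDGE for usage, and CAD and N2A together for line differences. SE is the log2 difference over the square root of F. DESeq2 1.42.0, scaling, filters, length-scaled counts, blocks and left-out replicate numbers were alternatives. Scripts used python 3.11.15, numpy 2.4.6 and pandas 2.3.3 and were tested on simulated data. Nothing says that the replicates come from separate cultures, so p-values measure the spread between libraries. Replicate pairs differed beyond sampling noise (chi-square per degree of freedom at least 6.56). Deviations from group means of same-numbered libraries correlated across genotypes at 0.104 to 0.563 in CAD, 0.191 to 0.446 in N2A and -0.102 to 0.270 in the Q331K experiment. Across compartments of 1 genotype they correlated at -0.037 to 0.503 in CAD, 0.072 to 0.462 in N2A and -0.0097 to 0.209 in the Q331K experiment. The labels do not say what the replicate numbers pair, so the replicate block was used only as an alternative.

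The members and lists were chosen with earlier results of these data known. Named are all members, their transcripts with at least 5% of gene TPM in a group (Tial1-209 and Tia1-206, outside this rule, were named after their values were seen), the target, up to 4 passing genes per list and comparison, and the 3 most similar genes. Coding shares and exon inclusion were added after seeing the transcript values.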

Additional observations from a re-analysis of the deposited data

Results flagged for a closer look

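In the main fit, the neurite difference of Atxn2 between knockout and wild-type cells differed between the 2 lines, as it did for 9.18% of all genes. It was lower in CAD than in N2A cells by -0.46 ± 0.11 on the log2 scale (edgeR, adjusted p = 0.00626), with -0.62 in CAD and -0.22 in N2A, and the groups did not overlap in either line. Over the 5 other settings of this fit its adjusted p ran from 0.00917 to 0.146, and the direction did not change. The call was kept only without replicate 3. It was lost with upper-quartile scaling, without a filter on low counts and without replicate 1 or 2. Length-scaled counts were not tried in this fit. Groups of 3 libraries are too small for a check of single outlying libraries, so none was made.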

How the results depend on the processing

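No member's passing difference changed its direction under any alternative. With length-scaled counts, 0 members passed in CAD soma, CAD neurites and N2A soma, where the main fit had 1, 2 and 2. Without a filter on low counts, 2 passed in CAD soma, 1 in CAD neurites and 1 in N2A neurites. DESeq2 gave 1 in N2A neurites and 1 for N2A LR change. An FDR of 0.05 gave 3 in CAD soma, 2 in N2A neurites and 1 for N2A LR change. At that FDR the Matr3 transcript also passed in N2A soma (adjusted p = 0.0429 with edgeR). With at least 10 counts in every library, 5 members had an LR apart from 0 in N2A wild-type cells. The line difference of 1 member became 0 with upper-quartile scaling and 0 without a filter. The 7 transcript level calls became 15 with at least 10 counts in every library and 16 at an FDR of 0.05, and the 5 usage calls became 8 at an FDR of 0.05. The cause was not tested.

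Leaving out 1 replicate number gave 0 to 1 members in CAD soma, 1 to 2 in CAD neurites, 0 to 1 in N2A soma, 1 to 3 for the LR of WT transgene cells, 0 to 1 for the line difference, 2 to 3 transcripts in level and 3 to 6 in usage, with fewer libraries in each fit. With the replicate block, 1 member passed in CAD soma, 2 in CAD neurites, 2 in N2A soma and 0 in N2A neurites, with 7 transcripts in level and 4 in usage. The block ended 1 call, the CAD neurite usage of Tial1-209, and no call of a member gene. Upper-quartile scaling moved the median of all genes to -0.33 for the N2A wild-type LR, -0.10 for the CAD wild-type LR, -0.12 in N2A soma and 0.11 for N2A LR change, and the share of passing genes that were higher from 55.0% to 39.1% for the N2A wild-type LR and from 68.0% to 49.0% in N2A soma (80.4% with length-scaled counts). Without a filter the N2A wild-type LR had a median of -0.20. N2A LR change had 18 passing genes with edgeR, 145 with upper-quartile scaling, 923 without a filter and 1445 with DESeq2. The Q331K libraries held 9783050 to 15870647 counts, and the part of this depth in the results of that experiment was not tested.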
